A study of Homo sapiens with 9 samples.

Results

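MOLM13 is a human cell line from acute myeloid leukemia with a fusion of KMT2A. Its cells were infected with virus expressing a control short hairpin RNA (shRNA), YTHDC1 shRNA 1 or YTHDC1 shRNA 2, incubated for 48 h and selected for 48 h in puromycin at 3 ug/ml. Messenger RNA was then sequenced in 3 libraries of each group. The comparison described here sets the 3 libraries labelled YTHDC1 shRNA 2 against the 3 labelled YTHDC1 shRNA 1, 6 of the 9 libraries in the series, and the 3 control libraries show where each gene stood in cells with a hairpin not labelled for YTHDC1. All groups passed through the same infection and selection. The names shRNA 1 and shRNA 2 stand throughout for libraries labelled so. The libraries of a group are numbered but are not said to come from separate cultures, so the p-values cover the spread from library to library alone. That spread may be technical.

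YTHDC1 is a nuclear protein that binds N6-methyladenosine (m6A), a common modification of messenger RNA, and takes part in splicing, export and decay of the RNAs that carry it. In acute myeloid leukemia, m6A proteins have been linked to the growth of immature myeloid cells and to the block in their maturation. More than 1 hairpin against a target is used because each can also act on other RNAs. The parts of YTHDC1 and of other RNAs in a difference between the hairpins cannot be told apart here.

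YTHDC1 mRNA, from chromosome 4, stood at 134, 139 and 122 CPM (counts scaled to library size, by the trimmed mean of M values or TMM) in control replicates 1 to 3, at 117, 103 and 134 CPM under shRNA 1, and at 0, 61.4 and 52.5 CPM under shRNA 2. The shRNA 1 libraries overlapped the controls, whereas all 3 shRNA 2 libraries lay below them. With all libraries, the difference between the hairpins was -1.63 ± 1.40 on the log2 scale (SE) and did not pass the test (edgeR adjusted p = 0.434). Without shRNA 2 replicate 1, which held no YTHDC1 count, it was -1.05 and passed (edgeR adjusted p = 0.000264). A zero in that library allows up to 0.113 CPM by counting error alone, taken over the library total before TMM scaling. With shRNA 1, YTHDC1 mRNA was not shown to be lower than control in either fit. The log2 change was -0.16 ± 1.36 with all libraries (edgeR adjusted p = 0.938) and -0.18 without shRNA 2 replicate 1 (edgeR adjusted p = 0.271). The targeted mRNA therefore does not check the label of the shRNA 1 group, and every direction given for shRNA 1 is that of the libraries labelled so. In this and later sentences the value after ± beside a log2 difference is its SE, back-calculated from the F statistic of the same test. MYC, a transcription factor that drives growth, stood at 514, 531 and 494 CPM in the controls, 212, 217 and 159.7 CPM under shRNA 1 and 125, 125 and 129.6 CPM under shRNA 2. It was lower with shRNA 2 than with shRNA 1 by a log2 difference of -0.63 ± 0.12 (edgeR adjusted p = 0.00258), and the hairpin groups did not overlap.

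The libraries held 26455628 to 67558535 counts over genes, the shallowest being shRNA 2 replicate 1. The ribosomal RNA precursor RNA45S5 took 4.78% to 13.1% of the counts with shRNA 1, 1.12% to 5.8% with shRNA 2 and 3.04% to 5.57% in controls. Markers of a monocytic myeloid leukemia were present in the controls, among them FLT3 at 619.0 ± 17.2 CPM (SD, n = 3), LYZ at 186 ± 75.5 CPM and CD33 at 49.2 ± 1.27 CPM. In shRNA 2 replicate 1, 486 of 16746 genes tested (2.9%) stood under 0.5 of the level of both other shRNA 2 libraries while each of those held at least 5 CPM. They included 127 of 178 genes tested (71.3%) between TRIM27 and ZBTB9 on chromosome 6, the region of the major histocompatibility complex, 10 of 15 between ARHGAP27 and NSF on chromosome 17, and 14 of 16 pseudoautosomal genes (87.5%), regions chosen after the values were seen. None of the 20 neighbours of YTHDC1, 10 on either side, was among them. How the authors counted reads with several places in the genome is not given in the sources used here, and its part in these losses was not tested. Every comparison was therefore repeated without that library.

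Between the hairpins, 2597 genes were higher (15.5% of the 16746 tested) and 2767 were lower (16.5%) with shRNA 2, by edgeR's quasi-likelihood test at an adjusted p under 0.05. More than 2-fold differences were seen for 1178 of the higher genes (7.03% of those tested) and 602 of the lower genes (3.59%), and the median over all genes tested was -0.03 on the log2 scale. The 3 shRNA 2 libraries lay wholly above or wholly below the 3 shRNA 1 libraries for 5285 of the 5364 genes called (98.5%), and for 7490 (44.7%) of all genes tested. Without shRNA 2 replicate 1, 2182 genes were higher (12.8% of 17113 tested) and 2253 lower (13.2%), and 1138 (6.65%) and 614 (3.59%) by more than 2-fold. Of the calls with all libraries, 4121 (76.8%) were made in the same direction in both fits and 0 in opposite directions. Leaving out shRNA 2 replicate 3 gave 1842 lower genes.

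The level in the controls divided these genes into classes, each by its calls against control with either hairpin. Against control, 20.4% of the genes tested rose and 19% fell with shRNA 1, and 27.5% rose and 27.4% fell with shRNA 2. Of the genes that differed between the hairpins, 901 genes rose with shRNA 1 and further with shRNA 2, and 903 fell with shRNA 1 and further with shRNA 2. A further 1092 genes were called up and 1085 called down against control with shRNA 2 only. Responses that were larger with shRNA 1 were fewer, at 122 smaller rises and 79 smaller falls with shRNA 2, and at 371 genes called up and 247 called down with shRNA 1 only. Opposite calls were made for 72 genes up with shRNA 2 and down with shRNA 1 (0.43% of those tested) and for 82 genes up with shRNA 1 and down with shRNA 2 (0.49%). The remaining 206 higher and 204 lower genes passed the test against control with neither hairpin, so the control lay between the hairpins or near one of them. Both comparisons against control share the same 3 control libraries, while the difference between the hairpins does not depend on their level. A gene called with 1 hairpin only is not shown to be unchanged with the other.

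**Figure D1:**
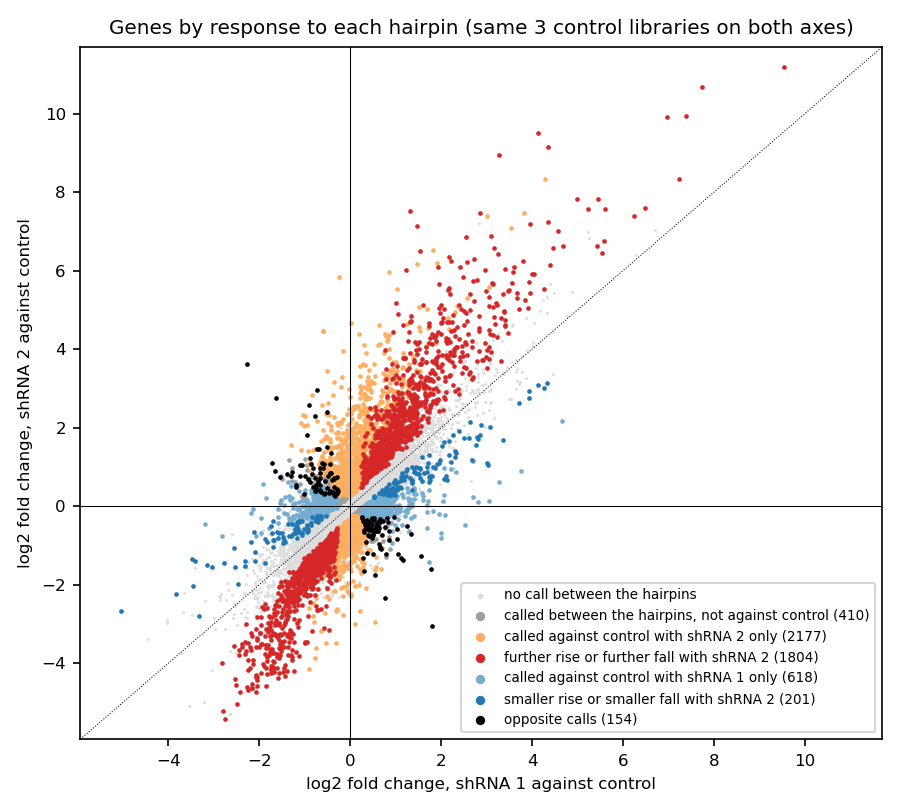
Each point is 1 of the 16746 genes tested, placed by its log2 fold change against control with shRNA 1 (x axis) and with shRNA 2 (y axis), and coloured by class. The 901 further rises and 903 further falls lie on the steep side of the dotted line of equal change, and the 154 genes with opposite calls (black) lie in the upper left and lower right corners.

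Without shRNA 2 replicate 1, the classes held 756 further rises, 855 further falls, 71 smaller rises, 52 smaller falls, 52 opposite genes up with shRNA 2 (0.304% of those tested) and 64 up with shRNA 1 (0.374%). Genes placed in the same class by both fits numbered 704, 764, 65, 48, 48 and 58 in that order. The small classes also depended on single other libraries: without control replicate 2, 35 opposite genes up with shRNA 2 and 39 up with shRNA 1 were left, with 72 smaller rises and 43 smaller falls. Without control replicate 3 the opposite genes were 42 and 46. Leaving out shRNA 1 replicate 2 raised the smaller falls to 168 and the genes called down with shRNA 1 only to 460. Without shRNA 1 replicate 1, 246 genes were called up with shRNA 1 only. Leaving out shRNA 2 replicate 2 left 58 smaller rises, 36 smaller falls and 53 opposite genes up with shRNA 1, and leaving out shRNA 2 replicate 3 left 63 smaller rises, 50 smaller falls, 47 opposite genes up with shRNA 2 and 689 called down with shRNA 2 only. With shRNA 2 replicate 1 left out, 19.6% of the genes tested rose and 20.8% fell against control with shRNA 1, and 25.8% rose and 27% fell with shRNA 2. The genes given with their levels below fell in the same class with all 9 libraries and without shRNA 2 replicate 1 unless stated. Genes given only as names may not have kept their class.

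**Figure D2:**
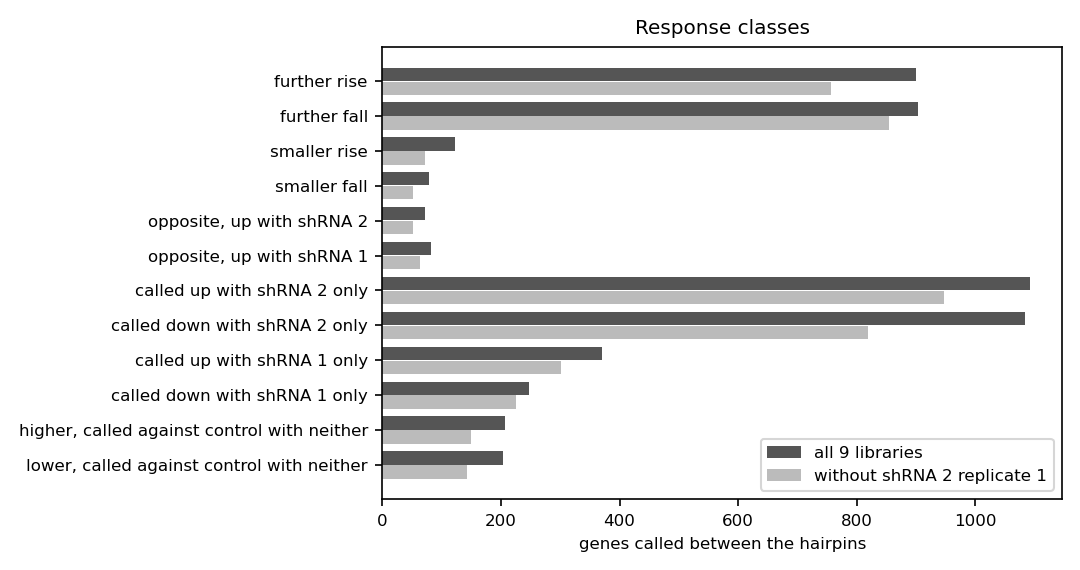
Bars give the number of genes called between the hairpins in each response class, with all 9 libraries (dark) and without shRNA 2 replicate 1 (light). Genes called down with shRNA 2 only number 1085 with all 9 libraries and 819 without that one, and the opposite classes are the shortest bars together with the smaller rises and falls.

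The genes that rose with shRNA 1 and far more with shRNA 2 were led by ACP5, SPP1, GPNMB, CD163, KCP and CCL4. ACP5, the tartrate-resistant acid phosphatase of osteoclasts and macrophages, stood at 0.143, 0.205 and 0.2104 CPM in the controls, 0.616, 0.469 and 0.318 CPM under shRNA 1 and 53.3, 27.9 and 23.4 CPM under shRNA 2. Its shRNA 1 libraries were just above the controls and its shRNA 2 libraries 74.4-fold above shRNA 1 (6.22 ± 0.39 on the log2 scale, edgeR adjusted p = 4.98e-06). SPP1, the secreted phosphoprotein osteopontin, rose from 0.112, 0.142 and 0.135 CPM in controls to 1.81, 0.987 and 1.03 CPM under shRNA 1 and 90.2, 56.02 and 47.6 CPM under shRNA 2, a log2 difference between the hairpins of 5.67 ± 0.32 (edgeR adjusted p = 3.74e-06). In both genes shRNA 2 replicate 1 was the highest library, and without it the log2 differences were 5.78 and 5.35. GPNMB, a transmembrane glycoprotein of lysosomes and melanosomes, stood at 1.08, 0.961 and 0.932 CPM in controls, 3.296, 1.699 and 2.06 CPM under shRNA 1 and 85.5, 54.7 and 52.6 CPM under shRNA 2. The haemoglobin scavenger receptor CD163 was near the detection limit in the controls, at 0.0637, 0.126 and 0.0601 CPM, held 0.199, 0.259 and 0.281 CPM under shRNA 1 and 10.02, 5.98 and 7.13 CPM under shRNA 2. KCP, a secreted modulator of bone morphogenetic protein signalling, moved in the same steps, with 0.218, 0.259 and 0.262 CPM against 18.1, 9.42 and 10.4 CPM. The chemokine gene CCL4 gave 1 or 0 counts in each control library, 0.218, 0.0971 and 0.0748 CPM under shRNA 1 and 5.595, 5.73 and 5.05 CPM under shRNA 2, so no fold against control is given. Near-identical copies of CCL4 exist, and how reads shared with them were counted is not given.

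The promoter of GPNMB is shown because it holds the letters TCANGTGA, the core that the lysosomal and melanocytic factors of the MITF and TFE family bind. It is written on the plus strand of GRCh38.p14 at chr7:23246525-23246824, from 250 bases before to 50 after the start in RefSeq. The match is on the complement of the strand shown. It is in capitals, and its first base lies at -63 from that start.
GPNMB: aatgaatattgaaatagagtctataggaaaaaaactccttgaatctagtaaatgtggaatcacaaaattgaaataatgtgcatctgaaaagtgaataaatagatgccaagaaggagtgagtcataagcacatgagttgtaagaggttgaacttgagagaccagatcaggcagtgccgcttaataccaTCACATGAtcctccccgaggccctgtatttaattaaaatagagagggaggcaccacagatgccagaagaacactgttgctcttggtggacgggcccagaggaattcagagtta
These letters occur on either strand in 3.93% of 27305 promoters of this length and in 6 of 16 promoters matched for the lysosome list, 4 of them among 11 genes higher with shRNA 2. Such matches describe the sequence and say nothing about binding in these cells.

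Genes of division formed the other end of the same direction. CDK1, the kinase that drives entry into mitosis, stood at 146, 112 and 106 CPM in the controls, 47.3, 39.5 and 34.97 CPM under shRNA 1 and 5.85, 7.16 and 4.39 CPM under shRNA 2. The 3 groups did not overlap, and the level with shRNA 1 was 6.99-fold that with shRNA 2 (-2.81 ± 0.20 on the log2 scale, edgeR adjusted p = 6.04e-06). MKI67, the source of the Ki-67 proliferation antigen, went from 433, 349 and 397 CPM to 162, 127 and 161 CPM and 18.9, 25.01 and 20.3 CPM, replicates 1 to 3 in turn, and differed between the hairpins by -2.81 ± 0.15 (edgeR adjusted p = 1.92e-06). The spindle protein gene DLGAP5 held 26.7, 20.6 and 22.8 CPM under shRNA 1 and 2.69, 3.84 and 2.45 CPM under shRNA 2, against 65.6, 52.6 and 47.5 CPM in the controls. The other 3 of the 6 leading further falls were DEPDC1, the CDK-binding phosphatase gene CDKN3 and the spindle checkpoint gene MAD2L1, with log2 differences between the hairpins of -2.88 ± 0.19, -2.70 ± 0.20 and -2.74 ± 0.21. In none of the 6 did a library of one hairpin reach a library of the other, which was a condition for naming them.

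**Figure D3:**
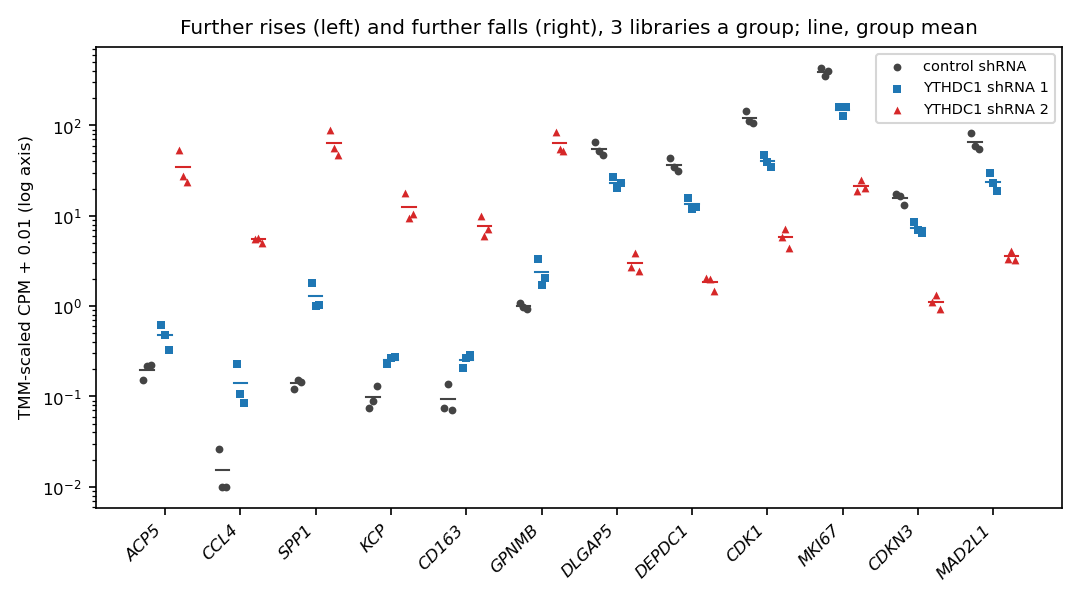
Points give TMM-scaled CPM plus 0.01 on a log axis in each of the 9 libraries, with a line at each group mean, for the 6 leading further rises (left) and 6 leading further falls (right). The shRNA 1 libraries lie between control and shRNA 2 for all 12 genes, as for CDK1 with 47.3, 39.5 and 34.97 CPM between 146, 112 and 106 and 5.85, 7.16 and 4.39 CPM. The genes were chosen as further rises or falls with hairpin groups that did not overlap, so this order largely follows from the choice.

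All 25 mitosis genes tested were lower with shRNA 2 than with shRNA 1, where 16.5% of all genes were, with a median of -2.12 on the log2 scale. Without shRNA 2 replicate 1, 24 were. Their median was -1.46 against control with shRNA 1 and -3.58 with shRNA 2. Each list count below is to be read beside the 15.5% higher and 16.5% lower of all genes tested. TOP2A, which untangles DNA strands, stood at 179, 129 and 152 CPM under shRNA 1 and 22.1, 27.5 and 23.4 CPM under shRNA 2. The mitotic kinesin gene KIF20A stood at 21.2, 17.01 and 16.8 CPM under shRNA 1 and 3.07, 3.52 and 3.005 CPM under shRNA 2. The letters TTTGAA of the cell cycle homology region, which recruits a repressor of mitotic genes in resting cells, occurred on either strand in 12 of the 20 mitosis promoters matched and in 15.4% of all promoters. Of 33 DNA replication genes, 26 were lower and 0 higher (median -0.86), and 27 were lower without that library. The helicase loading gene CDC6 fell from 58.1, 53.1 and 45.1 CPM in controls to 17.1, 13.7 and 13.2 CPM under shRNA 1 and 2.56, 3.25 and 2.29 CPM under shRNA 2, and MCM10, which acts as the helicase starts, from 77.6, 72.5 and 60.1 CPM in controls to 18.9, 15.3 and 16.9 CPM under shRNA 1 and 2.91, 3.55 and 2.25 CPM under shRNA 2. RRM1, the large subunit of the enzyme that makes deoxyribonucleotides, differed by -1.53 ± 0.13.

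The list of G1 cyclins, cyclin-dependent kinases and E2F factors was mixed, with 11 of 20 genes lower and 3 higher. CDK2, which acts at the start of S phase, held 21.98, 17.3 and 20.5 CPM under shRNA 1 and 8.66, 8.75 and 7.77 CPM under shRNA 2. The repressor gene E2F8 held 6.602 to 9.23 CPM under shRNA 1 and 1.39 to 1.99 CPM under shRNA 2. CDK6, a G1 kinase on which KMT2A-rearranged leukemia cells depend, stood at 871, 822 and 740.5 CPM in controls, 1316, 1148 and 1252 CPM under shRNA 1 and 692, 743 and 682 CPM under shRNA 2, and was called up with shRNA 1 (0.61, edgeR adjusted p = 0.00113) and not called with shRNA 2 (-0.20, edgeR adjusted p = 0.136). Replication-dependent histone genes, most of whose mRNAs end in a stem-loop and not a poly(A) tail, had 7 of 16 lower and 1 higher with shRNA 2. That count depended on single libraries, ranging from 3 lower genes without shRNA 1 replicate 1 or without shRNA 2 replicate 2, and 4 without shRNA 1 replicate 2 or with a replicate block, to 11 without shRNA 1 replicate 3. HIST1H4C stood at 161, 139.7 and 63.1 CPM under shRNA 1 and 40.97, 39.1 and 43.9 CPM under shRNA 2, while HIST1H2BK stood higher with shRNA 2, at 246, 208 and 267 CPM against 144, 158 and 95.5 CPM. Histone genes are near-identical copies whose reads may be shared.

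Monocyte and macrophage markers were higher with shRNA 2 for 17 of 25 genes tested and lower for 3, where 15.5% and 16.5% of all genes were (median 1.22 on the log2 scale; 16 and 3 without shRNA 2 replicate 1). Their median against control was 1.98 with shRNA 1 and 3.27 with shRNA 2. CLEC7A, the receptor dectin-1 for fungal glucans, stood at 0.351, 0.158 and 0.165 CPM in controls, 2.05, 1.08 and 1.796 CPM under shRNA 1 and 49.7, 37.2 and 33.3 CPM under shRNA 2. The co-stimulatory molecule gene CD86 had its main step already with shRNA 1: 2.104, 1.91 and 1.92 CPM in controls, 17.2, 16.7 and 15.7 CPM under shRNA 1 and 40.6, 43.3 and 48.2 CPM under shRNA 2 (log2 difference 1.42 ± 0.11, edgeR adjusted p = 5.87e-06). TLR8, an endosomal sensor of RNA, held 0.561 to 1.03 CPM under shRNA 1 and 5.03 to 5.196 CPM under shRNA 2. The 3 markers that were lower with shRNA 2 were S100A8 and S100A9, which form calprotectin, and TLR4, the receptor for bacterial lipopolysaccharide. TLR4 rose to 17.4, 15.3 and 16.3 CPM under shRNA 1 from 2.47, 2.396 and 2.19 CPM in controls, and to 9.01, 7.78 and 7.36 CPM under shRNA 2. S100A8 held 5.85, 3.96 and 4.46 CPM in controls, 28.2, 18.7 and 14.5 CPM under shRNA 1 and 9.33, 7.26 and 7.91 CPM under shRNA 2, with log2 differences between the hairpins of -1.33 ± 0.24 and of -1.02 ± 0.13 for TLR4. These 3 genes were smaller rises with shRNA 2 and therefore not opposite responses.

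Myeloid transcription factors were higher for 9 of 19 genes and lower for 1, GFI1 (median 0.32; 2 lower without shRNA 1 replicate 3). BCL6, a repressor active in macrophages and germinal center B cells, stood at 2.06, 2.27 and 2.55 CPM in controls, 6.22, 6.05 and 6.51 CPM under shRNA 1 and 42.7, 31.6 and 34.8 CPM under shRNA 2. EGR2, a zinc finger factor of the monocyte lineage, rose with both hairpins, from 4.75, 3.89 and 4.87 CPM in controls to 12.4, 11.6 and 9.79 CPM under shRNA 1 and 26.6, 21.95 and 23.8 CPM under shRNA 2. RUNX3 was an opposite gene, at 8.73, 9.99 and 10.1 CPM in controls, 6.097, 8.37 and 7.24 CPM under shRNA 1 and 15.5, 14.1 and 16.6 CPM under shRNA 2, and the 3 groups did not overlap. MAF, a factor of mature macrophages, held 0.948, 0.688 and 0.879 CPM under shRNA 2 and at most 0.113 CPM under shRNA 1, both low.

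Azurophil granule genes are products of the promyelocyte and early monocyte stages. Of 15 tested, 8 were lower with shRNA 2 (53.3%) and 0 higher, where 16.5% and 15.5% of all genes were. Their median was -0.84, and 9 were lower without shRNA 2 replicate 1. Their median against control was 1.35 with shRNA 1 and 0.10 with shRNA 2. CTSG, encoding the granule protease cathepsin G, stood at 946, 862 and 810.0 CPM in controls, 729, 684 and 487 CPM under shRNA 1 and 105, 99.3 and 91.4 CPM under shRNA 2. It was a further fall, and the shRNA 1 libraries were 6.42-fold above those of shRNA 2 (-2.68 ± 0.16, edgeR adjusted p = 1.92e-06). PRTN3, encoding proteinase 3, held 246, 293 and 311 CPM in controls, 449, 634 and 282 CPM under shRNA 1 and 204, 139 and 171 CPM under shRNA 2. It was called down with shRNA 2 only, and became an opposite gene without shRNA 2 replicate 1. MS4A3, a marker of granulocyte and monocyte progenitors, was called up with shRNA 1 only: 29.5, 14.9 and 16.4 CPM in controls, 104, 46.5 and 45.4 CPM under shRNA 1 and 16.2, 12.5 and 12.9 CPM under shRNA 2. Replicate 1 was the highest library of both the control and the shRNA 1 group. The hairpin groups did not overlap, which was a condition for naming the gene. CST7, encoding cystatin F, held 30.9 to 47.6 CPM under shRNA 1 and 16.5 to 21.8 CPM under shRNA 2. In these bulk libraries, fewer cells of a maturation stage and less RNA per cell cannot be told apart.

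Of 19 genes of the KMT2A fusion and stem cell program, 7 were lower with shRNA 2 and 0 higher (median -0.35). The lower share was 36.8%, against 16.5% of all genes. Against control, 10 fell and 4 rose with shRNA 1, and 12 fell and 3 rose with shRNA 2. CDK6, given above, is in this list and rose with shRNA 1. FLT3, a receptor kinase of blood progenitors, stood at 599, 632 and 626 CPM in controls, 462, 405 and 522 CPM under shRNA 1 and 259, 297 and 269 CPM under shRNA 2. BCL2, the survival gene targeted by venetoclax, went from 89.5, 95.9 and 105 CPM in controls to 36.96, 38.1 and 49.01 CPM under shRNA 1 and 15.4, 20.1 and 14.4 CPM under shRNA 2, a log2 difference between the hairpins of -1.31 ± 0.15 (edgeR adjusted p = 0.000104). The zinc finger gene ZNF521 stepped down likewise, with 69.3 to 86.000 CPM under shRNA 1 and 47.04 to 54.9 CPM under shRNA 2. Among 15 genes of the BCL2 family, BCL2 was the only one lower (6.67%, below the 16.5% of all genes). The 4 higher genes (26.7%, against 15.5% of all genes) were BCL2L1, BCL2A1, BMF and HRK. Without shRNA 1 replicate 3, 3 family members were lower. The pro-survival gene BCL2A1 held 13.01, 7.01 and 8.402 CPM under shRNA 1 and 32.2, 26.5 and 30.99 CPM under shRNA 2. The pro-death gene BMF held 22.6 to 35.6 CPM under shRNA 1 and 72.9 to 88.2 CPM under shRNA 2.

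Lysosome genes were higher with shRNA 2 for 17 of 24 tested (70.8%) and lower for 1, LAMP2 (4.17%), with a median of 0.61. Among all genes 15.5% were higher and 16.5% lower. Without shRNA 2 replicate 1, 14 lysosome genes were higher and 1 lower, and without shRNA 1 replicate 3, 2 were lower. The protease gene CTSB stood at 99.01, 93.8 and 95.7 CPM in controls, 246, 221 and 175 CPM under shRNA 1 and 1219.6, 831 and 863 CPM under shRNA 2, a log2 difference of 2.18 ± 0.17 (edgeR adjusted p = 7.75e-06). CTSA, encoding a carboxypeptidase that shields other lysosomal enzymes, held 60.7 to 84.6 CPM under shRNA 1 and 129.9 to 167 CPM under shRNA 2. ATP6V1H, a subunit of the proton pump, held 34.9 to 40.2 CPM under shRNA 1 and 69.999 to 77.2 CPM under shRNA 2. ATP6V1H was called up with shRNA 2 only when shRNA 2 replicate 1 was left out.

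NF-kB is a family of transcription factors that switches on inflammatory genes and its own inhibitors. Of 20 NF-kB subunits and feedback genes, 16 were higher with shRNA 2 (80.0%, against 15.5% of all genes). Only 1, IRF1, was lower (5.0%, against 16.5% of all genes). The median was 1.07, and 15 were higher and 0 lower without shRNA 2 replicate 1. The median against control was 0.09 with shRNA 1 and 1.42 with shRNA 2. NFKBIA, which encodes the inhibitor that holds NF-kB in the cytoplasm, stood at 34.1, 37.6 and 33.9 CPM in controls, 39.2, 45.8 and 33.3 CPM under shRNA 1 and 119, 116 and 108 CPM under shRNA 2. The shRNA 1 libraries overlapped the controls and the shRNA 2 libraries lay above both, and the hairpins differed by 1.54 ± 0.12 (edgeR adjusted p = 7.75e-06). TNFAIP3, encoding the feedback inhibitor A20, showed the same form, at 38.2, 35.3 and 45.9 CPM in controls, 38.2, 35.96 and 41.4 CPM under shRNA 1 and 133, 133 and 132 CPM under shRNA 2 (log2 difference 1.78 ± 0.11, edgeR adjusted p = 2.30e-06). CD83, a surface marker of activated antigen-presenting cells, rose in 2 steps, from 16.6, 15.97 and 16.2 CPM in controls to 71.03, 57.7 and 58.7 CPM under shRNA 1 and 253, 232 and 209.5 CPM under shRNA 2. SOD2, the mitochondrial superoxide dismutase gene, was an opposite gene, with 37.04, 38.9 and 36.7 CPM in controls, 25.6, 21.5 and 22.8 CPM under shRNA 1 and 119, 91.5 and 99.5 CPM under shRNA 2.

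The NFKBIA promoter is shown because it carries the letters GGGNNTTTC, the first bases of the kappa B element that NF-kB binds, 1 time on the strand shown and 2 times on its complement. It is written 5′ to 3′ on the minus strand of GRCh38.p14 at chr14:35404700-35404999, and the capitals mark the 3 matches, whose first bases lie at -177, -80 and -50 from the start.
NFKBIA: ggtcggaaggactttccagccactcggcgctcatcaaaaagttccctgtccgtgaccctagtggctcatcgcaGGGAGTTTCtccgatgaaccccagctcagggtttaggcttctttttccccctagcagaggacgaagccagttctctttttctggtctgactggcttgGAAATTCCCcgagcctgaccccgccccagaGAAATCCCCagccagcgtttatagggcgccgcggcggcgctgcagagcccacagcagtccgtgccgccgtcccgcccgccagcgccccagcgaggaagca
Searched on both strands, these letters were in 4.73% of all promoters and in 6 of the 17 promoters matched for the list. These were BIRC3, NFKB1, NFKBIA, NFKBIZ, REL and TNFAIP3, all among the genes higher with shRNA 2. Of the 17, however, 13 were genes higher and 1 was a gene lower with shRNA 2. For the chemokine and cytokine list, 2 of 11 promoters matched held the letters, 1 of them among 4 genes higher.

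Chemokine and cytokine genes were higher for 10 of 18 tested (55.6%) and lower for 0, with a median of 0.69. Among all genes 15.5% were higher and 16.5% lower. Without shRNA 1 replicate 3, 1 chemokine or cytokine gene was lower. IL1B, encoding the inflammatory cytokine interleukin 1 beta, stood at 0.924, 0.757 and 0.736 CPM in controls, 7.59, 6.15 and 5.18 CPM under shRNA 1 and 53.7, 48.4 and 55.9 CPM under shRNA 2, an 8.35-fold difference between the hairpins (3.06 ± 0.16, edgeR adjusted p = 1.87e-06). CCL3, which attracts monocytes, held 1.01 to 1.34 CPM in controls, 9.17 to 14.5 CPM under shRNA 1 and 74.99 to 84.1 CPM under shRNA 2. CCL3 also has near-identical copies. The macrophage growth factor gene CSF1 was called up with shRNA 2 only: 0.239, 0.252 and 0.225 CPM in controls, 0.218, 0.178 and 0.206 CPM under shRNA 1 and 21.6, 11.04 and 9.06 CPM under shRNA 2. The shRNA 1 libraries lay just below the controls without passing the test (edgeR adjusted p = 0.669), and shRNA 2 stood 68.5-fold above shRNA 1 (6.10 ± 0.37, edgeR adjusted p = 2.08e-06; 5.64 without shRNA 2 replicate 1). AP-1 and immediate early genes were higher for 10 of 21 and lower for 0 (median 0.47; 1 lower without shRNA 1 replicate 3), among them JUN at 19.5, 23.7 and 19.1 CPM against 54.7, 44.3 and 62.1 CPM and the phosphatase gene DUSP4 at 4.41, 3.84 and 4.29 CPM against 24.8, 19.5 and 23.6 CPM.

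Of 29 interferon-stimulated genes, 10 were higher with shRNA 2 (34.5%, where 15.5% of all genes were) and 6 lower (20.7%, near the 16.5% of all genes), with a median of 0.15. Without shRNA 2 replicate 1, 9 were higher and 4 lower, and without shRNA 2 replicate 3, 3 were lower. The higher genes were IFIT5, MX2, OAS2, OAS3, IFI6, IFI44, IFI44L, IFIH1, RSAD2 and STAT2, and the lower genes IFIT1, IFIT2, IFIT3, DDX58, XAF1 and SAMD9L. IFIH1, the cytoplasmic sensor MDA5 of long double-stranded RNA, stood at 10.1, 10.8 and 11.4 CPM in controls, 18.4, 17.04 and 19.1 CPM under shRNA 1 and 30.3, 34.2 and 34.2 CPM under shRNA 2. OAS2, an oligoadenylate synthetase gene, rose with both hairpins, with 5.39, 4.87 and 4.97 CPM in controls, 7.61, 7.72 and 7.56 CPM under shRNA 1 and 16.2, 19.2 and 16.4 CPM under shRNA 2. Its relative OAS3 did not: it fell with shRNA 1 and rose with shRNA 2.

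Of the opposite genes, 38 up with shRNA 2 and 51 up with shRNA 1 kept their class in both fits with hairpin groups that did not overlap and a mean of at least 5 CPM in the higher hairpin group, and the 6 of each that lead by the smallest of their changes against control, over both hairpins and both fits, are described. OAS3, which makes the signal that activates the RNA-degrading enzyme RNase L, led those up with shRNA 2. It held 5.91, 4.62 and 5.08 CPM in controls, 2.62, 2.298 and 2.34 CPM under shRNA 1 and 11.1, 10.9 and 10.2 CPM under shRNA 2. Each shRNA 1 library lay below every control and each shRNA 2 library above them, with log2 changes against control of -1.10 and 1.04 and a difference of 2.15 ± 0.15 between the hairpins (edgeR adjusted p = 4.30e-06). CXCL10, the interferon-induced chemokine that attracts activated T cells, stood at 4.11, 3.59 and 3.396 CPM in controls, 1.95, 2.48 and 2.26 CPM under shRNA 1 and 23.1, 33.3 and 30.4 CPM under shRNA 2. The hairpins differed by 12.96-fold (3.70 ± 0.18, edgeR adjusted p = 1.75e-06). PDGFA, a growth factor for mesenchymal cells, went from 12.3, 10.8 and 11.1 CPM in controls down to 5.46, 5.83 and 5.05 CPM under shRNA 1 and up to 25.004, 23.1 and 22.1 CPM under shRNA 2. The kinase gene RPS6KA2 held 3.36, 5.53 and 5.39 CPM in controls, 2.05, 2.54 and 2.86 CPM under shRNA 1 and 20.3, 14.7 and 15.7 CPM under shRNA 2. Again no library of one group lay within the range of another. The T cell receptor adaptor gene LAT and the homeobox gene SIX4 were low throughout, with 1.16, 0.961 and 1.53 and 1.71, 1.91 and 2.599 CPM in the controls. LAT stood at 0.675, 0.777 and 0.692 CPM under shRNA 1 and 7.302, 4.55 and 6.19 CPM under shRNA 2. SIX4 stood at 1.03, 1.17 and 1.57 CPM under shRNA 1 and 5.25, 5.56 and 6.25 CPM under shRNA 2.

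The promoters of OAS3 and CXCL10 are shown because both carry the letters GAAANNGAA of the interferon-stimulated response element, in capitals here. OAS3 is written on the plus strand at chr12:112938224-112938523 and CXCL10 on the minus strand at chr4:76023448-76023747, both in GRCh38.p14. The matches begin at -143 and -12 for OAS3 and at -221 for CXCL10.
OAS3: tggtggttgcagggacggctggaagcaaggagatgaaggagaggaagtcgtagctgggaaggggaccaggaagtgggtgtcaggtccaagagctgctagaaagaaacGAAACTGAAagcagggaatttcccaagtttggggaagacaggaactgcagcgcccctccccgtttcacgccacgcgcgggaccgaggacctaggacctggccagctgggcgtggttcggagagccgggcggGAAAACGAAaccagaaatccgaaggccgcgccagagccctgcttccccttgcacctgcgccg
CXCL10: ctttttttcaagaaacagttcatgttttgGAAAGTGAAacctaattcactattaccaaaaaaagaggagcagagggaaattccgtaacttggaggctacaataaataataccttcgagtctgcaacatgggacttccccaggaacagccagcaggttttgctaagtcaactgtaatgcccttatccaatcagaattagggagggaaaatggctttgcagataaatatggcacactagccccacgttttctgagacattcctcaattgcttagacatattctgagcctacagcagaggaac
On either strand the letters were in 8.29% of all promoters and in 16 of the 22 matched for the interferon-stimulated list (72.7%), 7 of 8 genes higher and 2 of 5 genes lower with shRNA 2. The element was thus present in genes of both directions.

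The opposite genes up with shRNA 1 were led by CA2, encoding carbonic anhydrase 2. It stood at 23.6, 16.03 and 14.8 CPM in controls, 74.1, 66.3 and 50.3 CPM under shRNA 1 and 2.402, 2.48 and 1.66 CPM under shRNA 2. It rose with shRNA 1 (1.81) and fell with shRNA 2 (-3.06), a 29.2-fold difference between the hairpins (edgeR adjusted p = 1.92e-06). MPO, the myeloperoxidase gene and the best known azurophil granule marker, held 130.2, 66.2 and 99.5 CPM in controls, 351, 283 and 236 CPM under shRNA 1 and 50.1, 29.2 and 43.3 CPM under shRNA 2. The 3 groups did not overlap (difference between the hairpins -2.83 ± 0.30, edgeR adjusted p = 0.000182). INSIG1, which retains the activator of sterol synthesis in the endoplasmic reticulum when sterols abound, went from 51.7, 42.6 and 50.5 CPM up to 92.2, 70.7 and 87.03 CPM under shRNA 1 and down to 20.4, 20.4 and 21.3 CPM under shRNA 2. MUC1, a membrane mucin gene, held 7.19, 7.17 and 9.59 CPM in controls, 13.3, 16.5 and 13.4 CPM under shRNA 1 and 4.74, 3.897 and 4.56 CPM under shRNA 2. The organic anion transporter gene SLCO4C1 held 12.1, 10.2 and 11.9 CPM in controls, 22.5, 19.5 and 27.7 CPM under shRNA 1 and 6.196, 5.77 and 7.28 CPM under shRNA 2. In both the controls lay between the hairpins. SORCS2, a sorting receptor gene, ended at 1.01, 0.6304 and 0.797 CPM under shRNA 2 after 6.73, 7.02 and 6.89 CPM under shRNA 1 and 3.67, 3.58 and 4.94 CPM in the controls.

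**Figure D4:**
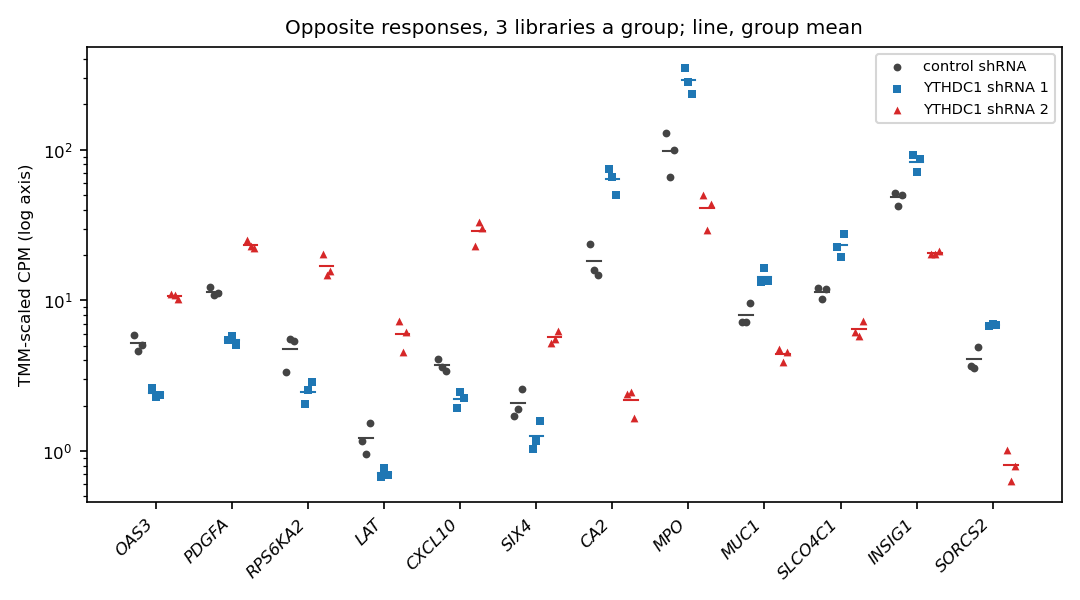
Points give TMM-scaled CPM on a log axis in each of the 9 libraries, with a line at each group mean, for the 6 opposite genes up with shRNA 2 and the 6 up with shRNA 1. The controls lie between the hairpin groups for all 12 genes, as for CA2 with 23.6, 16.03 and 14.8 CPM between 2.402, 2.48 and 1.66 and 74.1, 66.3 and 50.3 CPM. The genes were chosen for opposite calls against control, so this order largely follows from the choice.

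Cholesterol synthesis genes, of which INSIG1 is a regulator, were lower with shRNA 2 for 14 of 23 tested and higher for 0, with all libraries and without shRNA 2 replicate 1 (median -0.67). The lower share was 60.9% with all libraries, where 16.5% of all genes were lower and 15.5% higher. The list's median against control was -0.12 with shRNA 1 and -0.84 with shRNA 2. FDPS, encoding farnesyl diphosphate synthase, stood at 185, 139 and 156 CPM in controls, 136, 111 and 104 CPM under shRNA 1 and 52.4, 51.3 and 52.1 CPM under shRNA 2. The demethylating oxidase gene MSMO1 held 33.1, 25.2 and 28.2 CPM in controls and 43.4, 31.2 and 33.1 CPM under shRNA 1, which overlap, and 14.5, 14.1 and 15.6 CPM under shRNA 2. DHCR7, which makes the last step to cholesterol, held 19.4 to 23.8 CPM under shRNA 1 and 9.09 to 12.04 CPM under shRNA 2. The letters TCACCCCAC of a sterol regulatory element were in 1 of 17 promoters matched, that of SREBF2, and in 0.425% of all promoters.

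Endoplasmic reticulum chaperones were lower with shRNA 2 for 14 of 19 genes and higher for 2, HERPUD1 and EDEM1 (median -0.73; 13 and 2 without shRNA 2 replicate 1). With all libraries 73.7% of the list were lower and 10.5% higher, against 16.5% and 15.5% of all genes. The list's median against control was 0.46 with shRNA 1 and -0.06 with shRNA 2. P4HB, a protein disulfide isomerase gene, was called up with shRNA 1 only: 367, 345 and 351 CPM in controls, 667, 666 and 481 CPM under shRNA 1 and 358, 325 and 341 CPM under shRNA 2. The secreted stress protein gene MANF was in the same class, with 7.65 to 8.94 CPM in controls, 13.9 to 20.5 CPM under shRNA 1 and 7.18 to 7.42 CPM under shRNA 2. SEL1L, part of the machine that removes misfolded proteins, was an opposite gene, at 85.3, 85.7 and 77.03 CPM in controls, 138, 108 and 125 CPM under shRNA 1 and 57.6, 56.4 and 47.1 CPM under shRNA 2. EDEM1, which feeds the same machine, was opposite in the other direction with all 9 libraries (128 to 129 CPM in controls, 93.8 to 109.8 CPM under shRNA 1 and 149 to 172 CPM under shRNA 2) and was called down with shRNA 1 only without shRNA 2 replicate 1.

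Of 21 genes under ATF4, the factor of the amino acid response, and of serine synthesis, 18 fell and 2 rose against control with shRNA 1 (median -1.50), and 16 fell and 2 rose with shRNA 2 (median -1.13). Over all genes tested, 19% fell with shRNA 1 and 27.4% with shRNA 2. Between the hairpins 7 of the 21 genes were higher (33.3%) and 2 lower (9.52%) with shRNA 2, against 15.5% and 16.5% of all genes. The higher count was 4 without shRNA 1 replicate 3 and 11 with a replicate block. ATF5 held 19.5, 27.03 and 19.5 CPM in controls, 6.95, 9.26 and 7.86 CPM under shRNA 1 and 21.5, 18.1 and 19.2 CPM under shRNA 2. All shRNA 1 libraries of ATF5 lay below the controls, and the shRNA 2 libraries overlapped them. TRIB3, a pseudokinase gene of the same response, was a smaller fall with shRNA 2, at 63.6 to 97.9 CPM in controls, 13.96 to 18.9 CPM under shRNA 1 and 24.9 to 35.1 CPM under shRNA 2. SHMT2, which turns serine into glycine in mitochondria, fell further instead, from 501, 482 and 443 CPM in controls to 140.3, 162 and 98.03 CPM under shRNA 1 and 85.5, 80.4 and 70.5 CPM under shRNA 2. Aminoacyl-tRNA synthetase genes were lower for 7 of 20 (35.0%, against 16.5% of all genes). NARS and WARS were the 2 higher genes (10.0%, below the 15.5% of all genes). Without shRNA 2 replicate 3, 4 synthetase genes were lower. WARS, the tryptophan enzyme gene that interferon gamma also induces, stood at 199.9, 197 and 143 CPM in controls, 121, 104 and 85.03 CPM under shRNA 1 and 219, 222 and 206 CPM under shRNA 2.

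Of 24 genes of the p53 response, 16 rose and 1 fell against control with shRNA 1 (median 0.68), and 13 rose and 1 fell with shRNA 2 (median 0.76). Over all genes tested, 20.4% rose and 19% fell with shRNA 1, and 27.5% rose and 27.4% fell with shRNA 2. Between the hairpins 6 p53 genes were higher (25.0%) and 9 lower (37.5%) with shRNA 2, with a median of -0.25. Among all genes 15.5% were higher and 16.5% lower. Without shRNA 2 replicate 1 or replicate 2, 3 p53 genes were higher. GDF15, a stress cytokine gene, was called up with shRNA 2 only, at 0.494, 0.6304 and 0.2404 CPM in controls, 0.258, 0.421 and 0.262 CPM under shRNA 1 and 6.42, 3.38 and 5.01 CPM under shRNA 2. The antiproliferative gene BTG2 rose with both hairpins, with 17.4 to 20.6 CPM in controls, 74.7 to 96.1 CPM under shRNA 1 and 144 to 174 CPM under shRNA 2. FAS, the death receptor gene, rose more with shRNA 1, at 28.1, 27.5 and 22.6 CPM in controls, 88.6, 79.3 and 71.2 CPM under shRNA 1 and 43.7, 48.1 and 48.9 CPM under shRNA 2. CDKN1A and MDM2, the best known targets, did not pass between the hairpins, with log2 differences of 0.24 ± 0.15 (edgeR adjusted p = 0.271) and -0.25 ± 0.12 (edgeR adjusted p = 0.122).

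The genes called up with shRNA 2 only were led by CSF1, described above among the cytokines, the serine dehydratase gene SDS and LOC100130705. SDS stood at 0.159, 0.205 and 0.165 CPM in controls, 0.457, 0.469 and 0.1497 CPM under shRNA 1 and 11.6, 7.34 and 5.97 CPM under shRNA 2. LOC100130705 stood at 0.972, 0.9299 and 1.02 CPM in controls, 0.794, 0.89001 and 0.936 CPM under shRNA 1 and 18.5, 13.5 and 13.04 CPM under shRNA 2. In both, the shRNA 1 libraries overlapped the controls. Called down with shRNA 2 only, DPY30, a core subunit of the complexes that methylate lysine 4 of histone H3, including those of KMT2A, held 19.7, 19.1 and 16.9 CPM in controls, 21.9, 18.4 and 16.3 CPM under shRNA 1 and 3.48, 4.01 and 4.21 CPM under shRNA 2 (log2 difference -2.27 ± 0.15, edgeR adjusted p = 2.95e-06). GTF2A2, a subunit of the general transcription factor TFIIA, held 31.9, 27.8 and 22.9 CPM in controls, 36.1, 28.7 and 23.7 CPM under shRNA 1 and 6.196, 6.72 and 7.09 CPM under shRNA 2. For both, controls and shRNA 1 overlapped and shRNA 2 lay far below. The growth factor receptor gene FGFR3 held 7.89, 8.32 and 11.04 CPM in controls, 4.05, 8.803 and 5.63 CPM under shRNA 1 and 1.33, 1.26 and 1.51 CPM under shRNA 2.

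Responses called with shRNA 1 only were led, beside MS4A3, by MSRB1, a selenoprotein gene that repairs oxidised methionine, and ROPN1L. MSRB1 stood at 12.2, 8.67 and 10.2 CPM in controls, 46.3, 59.7 and 22.5 CPM under shRNA 1 and 12.9, 10.1 and 11.02 CPM under shRNA 2, with a wide spread among the shRNA 1 libraries. ROPN1L held 4.56, 2.92 and 3.44 CPM in controls, 11.3, 9.89 and 6.59 CPM under shRNA 1 and 3.38, 2.46 and 3.07 CPM under shRNA 2. On the other side, JDP2, a repressor of AP-1 targets, held 11.4, 12.3 and 10.3 CPM in controls, 2.18, 2.65 and 2.71 CPM under shRNA 1 and 12.2, 9.304 and 8.63 CPM under shRNA 2 (log2 difference 1.99 ± 0.17, edgeR adjusted p = 1.44e-05). RGS10, which shortens G protein signals in myeloid cells, held 58.7, 50.1 and 45.05 CPM in controls, 24.9, 19.7 and 15.8 CPM under shRNA 1 and 64.3, 61.4 and 59.8 CPM under shRNA 2. The sphingosine kinase gene SPHK1 held 5.71, 7.01 and 8.29 CPM in controls, 2.42, 2.96 and 1.78 CPM under shRNA 1 and 8.63, 6.48 and 7.195 CPM under shRNA 2. In all 3, every shRNA 1 library stood below every control, while the shRNA 2 libraries overlapped the controls or, for RGS10, lay above them.

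Where both hairpins moved a gene the same way and shRNA 1 moved it more, FLT1 and STC2 were among the leading genes. FLT1, a receptor of vascular endothelial growth factor, stood at 4.59, 5.53 and 5.29 CPM in controls, 42.3, 36.5 and 48.02 CPM under shRNA 1 and 8.76, 11.3 and 11.98 CPM under shRNA 2 (log2 difference -1.98 ± 0.15, edgeR adjusted p = 7.32e-06). STC2, encoding the secreted glycoprotein stanniocalcin 2, fell from 21.7, 26.1 and 17.9 CPM to 1.93, 2.15 and 2.08 CPM under shRNA 1 and 8.09, 10.05 and 6.66 CPM under shRNA 2 (log2 difference 2.01 ± 0.19, edgeR adjusted p = 2.67e-05). TMEM45A and VIT, the other leading smaller rises, held 44.6, 26.1 and 28.4 and 9.33, 7.96 and 6.98 CPM under shRNA 1 against 11.1, 8.005 and 7.36 and 2.91, 2.62 and 3.31 CPM under shRNA 2. The smaller falls NHSL1 and KIAA1644 held 9.75, 10.7 and 12.4 and 2.82, 3.11 and 3.01 CPM under shRNA 1, 29.2, 31.5 and 29.6 and 8.09, 7.37 and 6.83 CPM under shRNA 2, and 47.2, 50.8 and 45.1 and 9.58, 9.204 and 10.3 CPM in the controls.

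Of 22 glycolysis genes, 5 were higher and 8 lower with shRNA 2 (median -0.12), where 15.5% and 16.5% of all genes were. The aldolase gene ALDOC held 50.6, 41.2 and 61.2 CPM in controls, 33.3, 33.5 and 31.3 CPM under shRNA 1 and 7.997, 7.74 and 9.16 CPM under shRNA 2. The hexokinase gene HK1 held 1.15 to 1.76 CPM in controls, 2.56 to 2.999 CPM under shRNA 1 and 7.22 to 8.72 CPM under shRNA 2. Of 27 respiratory chain genes, 2 were higher and 1 lower (median 0.11), shares of both directions below those of all genes tested, with 4 higher without shRNA 1 replicate 2, 1 higher without shRNA 2 replicate 1, 2 lower without shRNA 1 replicate 3 and 0 lower without shRNA 2 replicate 3. Nucleolar ribosome biogenesis genes were lower for 14 of 28 and higher for 0 (median -0.41), and for 8 without shRNA 1 replicate 1 or 7 without shRNA 2 replicate 3. NOLC1, a nucleolar chaperone gene, stepped from 309, 309.8 and 279 CPM in controls to 200.3, 179 and 171 CPM under shRNA 1 and 95.3, 112 and 97.1 CPM under shRNA 2. Of 34 cytosolic ribosomal protein genes, 2 were lower, RPL7 and RPSA (5.88%, below the 16.5% of all genes). Both have processed copies in the genome. Such copies were not looked up for the other genes of the list, and their part was not tested. Without shRNA 1 replicate 3, 9 ribosomal protein genes were lower, and without shRNA 1 replicate 1, 1 was higher. Among 26 SRSF and HNRNP splicing regulators, 9 were lower and 0 higher, but 3 were lower without shRNA 2 replicate 1, 3 without shRNA 1 replicate 1 and 2 without shRNA 2 replicate 3, and 1 was higher without shRNA 1 replicate 2 or replicate 3. Of 19 other m6A genes, METTL3, METTL14, FTO and IGF2BP2 were lower with shRNA 2, a share of 21.1% near the 16.5% of all genes. Without shRNA 2 replicate 1, FTO alone remained called, and without shRNA 2 replicate 3, 2 of the 19 were called. FTO, the m6A demethylase gene, held 43.2, 39.2 and 35.8 CPM in controls, 45.2, 34.4 and 45.1 CPM under shRNA 1 and 22.2, 24.5 and 25.1 CPM under shRNA 2 (log2 difference -0.80 ± 0.13, edgeR adjusted p = 0.000863). In the network of MYC, MAX and MXD genes, MYC was the only 1 of 11 called, with 2 lower without shRNA 1 replicate 3 and 1 higher without shRNA 1 replicate 2.

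**Figure D5:**
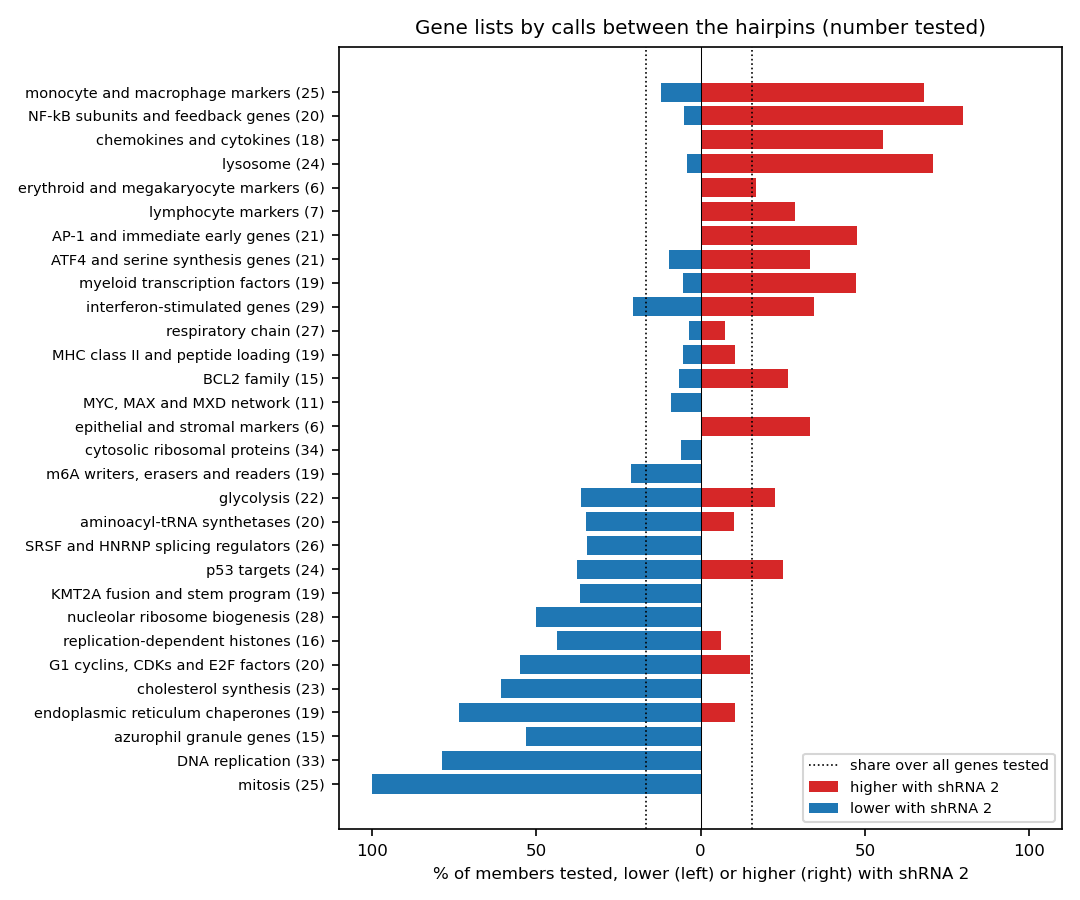
Bars give, for each gene list with its number tested, the percent of members lower (left) and higher (right) with shRNA 2 than with shRNA 1, ordered by the median log2 difference. Dotted lines mark the 15.5% and 16.5% of all genes tested; the mitosis bar reaches all 25 genes on the lower side and the NF-kB bar 16 of 20 on the higher side.

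Genes for antigen presentation could not be compared with all libraries, since 13 of the 19 tested were among those low in shRNA 2 replicate 1. With all libraries 2 were higher and 1 lower, 1 or 2 higher and 0 lower without any other single library except shRNA 2 replicate 3, and without shRNA 2 replicate 1 they were 6 higher and 5 lower. Genes of this family are alike in sequence, and how shared reads were counted is not given. HLA-C, a class I gene, held 718, 774 and 727 CPM in controls, 637, 652 and 473 CPM under shRNA 1 and 50.4, 218 and 229.7 CPM under shRNA 2. The 2 remaining libraries still lay below all of shRNA 1 (log2 difference -1.39 without replicate 1, edgeR adjusted p = 5.92e-05). The class II gene HLA-DPA1 was higher in those 2 libraries, with 0, 7.03 and 5.36 CPM against 1.43, 0.841 and 0.449 CPM under shRNA 1 (log2 difference 2.78 without replicate 1, edgeR adjusted p = 0.000287). CIITA, the master activator of class II genes, lies on chromosome 16 and was not among the genes low in that library; it held 1.37, 1.67 and 2.22 CPM in controls, 0.894, 1.31 and 1.104 CPM under shRNA 1 and 2.66, 2.33 and 2.27 CPM under shRNA 2 (log2 difference 1.12 ± 0.24, edgeR adjusted p = 0.00465).

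Of 16 erythroid and megakaryocyte markers 6 were tested and 1, the integrin gene ITGB3, was higher with shRNA 2. That share of 16.7% is near the 15.5% of all genes. Without shRNA 1 replicate 3, 2 of these markers were higher and 1 lower. The list summed to 9.7 to 13.4 CPM in controls, 9.37 to 11.2 CPM under shRNA 1 and 12.9 to 15.5 CPM under shRNA 2, and GYPB and PF4 had 0 counts in all 9 libraries. Of 14 lymphocyte markers 7 were tested and 2 (28.6%, against 15.5% of all genes), PAX5 and IL7R, were higher with shRNA 2 than with shRNA 1. Their list summed to 57.2 to 61.3 CPM in controls, 64.5 to 79.7 CPM under shRNA 1 and 101 to 123 CPM under shRNA 2. PAX5 was a smaller fall, with means of 37.4 CPM in controls, 12.3 CPM under shRNA 1 and 23.8 CPM under shRNA 2. IL7R was a further rise, with means of 6.02, 38.5 and 57.2 CPM in the same order. Of 11 epithelial and stromal markers 6 were tested and 2 (33.3%, against 15.5% of all genes), VIM and DCN, were higher. The summed level was 242 to 342 CPM in controls, 260.0 to 368 CPM under shRNA 1 and 635 to 760.0 CPM under shRNA 2. That sum was made almost wholly of VIM, which myeloid cells also express. The part of other cells in the differences between the hairpins was not tested.

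The genes that differed are also described by span, share of protein-coding genes and level, the last taken from the same counts as the test. Genes higher with shRNA 2 spanned a median of 35.0 kb and genes lower 29.6 kb, against 24.6 kb for all genes tested, and further rises spanned 41.1 kb against 25.4 kb for further falls. Among differences over 2-fold the spans were shorter, at 28.8 kb for genes higher and 22.9 kb for genes lower, the latter below that of all genes. Protein-coding genes made up 88.4% of the higher and 90.7% of the lower genes, and 82.4% of all genes tested. The median level over libraries was 9.17 CPM for genes higher and 28.5 CPM for genes lower with shRNA 2, against 13.0 CPM for all genes tested. Spans come from an annotation of GRCh38 and carry no test.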

How the data were processed

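The authors deposited 1 table of raw counts per transcript, whole numbers with a column for each of the 9 libraries; per the submitters' processing notes the tools were STAR and DESeq and the build hg19. Not given in the sources used here were their versions and roles, the program that counted, strand use and the handling of multi-mapped reads. Stranded mRNA libraries were prepared, per the labels' protocols. The table held 48104 transcript rows and 25679 symbols, 9509 of them with more than 1 row, and the row with the highest total over the 9 count columns was kept for each symbol. Of 80 symbols turned into dates, 78 were restored by transcript identifier and 2 left out. Names and chromosomes came from RefSeq, which matched 97.7% of rows. Sequences are RefSeq promoters of GRCh38.p14, 250 bases before to 50 after each start. No column was left unused (0 columns).

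Totals ran from 26455628 to 67558535 counts. The limit that a count of 0 allows, 3 counts, is 0.0444 to 0.113 CPM over these totals before TMM scaling. This covers counting error only, since the reads carry no molecular identifiers. Genes were filtered with filterByExpr, scaled by TMM and tested with edgeR 4.0.16 in R 4.3.3 by robust quasi-likelihood F-tests, two-sided, with all 9 libraries and a mean per group, Benjamini-Hochberg adjustment over all genes tested and a threshold of 0.05. The contrast of shRNA 2 with shRNA 1 is also the test of the difference between their effects against control. A gene called between the hairpins was classed by its calls against control. The fit was repeated without shRNA 2 replicate 1. Counts for shRNA 2 against shRNA 1 were also simulated, with 16438 genes tested. In them 66 genes were changed 4-fold, 67 were changed 2-fold and 67 were changed 1.5-fold. Of these, 78.8%, 59.7% and 4.5% were recovered in turn, and 8.7% of calls were false. Far fewer genes were changed there than were called in the data, so these shares need not hold for the data. Alternatives were each library left out, a replicate block, the compared groups only, DESeq2 size factors, DESeq2 1.42.0, no filter, the first row per symbol, ribosomal RNA and mitochondrial genes left out, and a 2-fold minimum.

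The comparison, the 30 gene lists, the motif letters and the tests were chosen with earlier results of these data known. YTHDC1 and MYC are always named. The genes named by class kept their call and class in both fits, with hairpin groups that did not overlap and a mean of at least 5 CPM in the higher one: by the smaller difference between the hairpins of both fits, 6 further rises, 6 further falls and 3 of each other called class, and 6 opposite genes in each direction by their smallest change against control over both hairpins and both fits. Up to 4 members of each list were named by the smallest p between the hairpins, and the text gives a choice of these. S100A8, S100A9, TLR4, CDKN1A, MDM2, and the members given only as names in a list's count, were chosen after their values were seen.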

Additional observations from a re-analysis of the deposited data

Results flagged for a closer look

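In 12 genes named above the hairpins moved the level in opposite directions from control, and the difference between the effects passed the test (edgeR adjusted p under 0.05), with the difference of shRNA 2 minus shRNA 1 on the log2 scale as its size. The genes up with shRNA 2 were OAS3 (2.15), PDGFA (2.10), RPS6KA2 (2.76), LAT (3.06), CXCL10 (3.70) and SIX4 (2.18). Those up with shRNA 1 were CA2 (-4.87), MPO (-2.83), MUC1 (-1.71), SLCO4C1 (-1.85), INSIG1 (-2.01) and SORCS2 (-3.10). In all 12 the 3 libraries of each hairpin lay on opposite sides of the 3 controls, and all were named because both their effects against control were large, so the directions are part of how they were chosen.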

How the results depend on the processing

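None of the 153 genes named by rule reversed its direction under any alternative run. For lists, only the counts of members higher and lower were followed. Genes named in other ways were not followed through all alternatives. Genes higher with shRNA 2 numbered 2033 to 3030 and genes lower 1842 to 3203 when each library was left out in turn. The classes then ranged from 681 to 904 further rises, 632 to 956 further falls, 58 to 139 smaller rises, 36 to 168 smaller falls, 35 to 105 opposite genes up with shRNA 2, 39 to 110 up with shRNA 1, 893 to 1414 called up and 689 to 1350 called down with shRNA 2 only, 246 to 432 called up and 177 to 460 called down with shRNA 1 only, and 132 to 307 higher and 129 to 310 lower with neither called against control; the cause was not tested. A 2-fold minimum keeps fewer genes by construction: 1178 higher and 602 lower, with 432 further rises, 274 further falls, 24 smaller rises, 15 smaller falls, 51 opposite genes up with shRNA 1, 558 and 168 called up and down with shRNA 2 only, 67 and 60 with shRNA 1 only, and 57 higher and 18 lower with neither. DESeq2 called 2701 higher and 2941 lower, and the compared groups alone 2159 and 2194. Same-numbered libraries of the hairpins were not paired by the data, with correlations from -0.09 to 0.02. Of all 9 same-numbered pairs, which ran from -0.09 to 0.57, 2 correlated above 0.1. Both joined control with shRNA 1, at 0.57 for replicate 1 and 0.21 for replicate 3. Control replicate 3 correlated at 0.26 with shRNA 1 replicate 2 and at -0.52 with shRNA 1 replicate 1. The replicate block gave 2602 higher and 2709 lower genes. Beside the list counts given with it above, that block lost the calls of HLA-C (edgeR adjusted p = 0.0662) and NLRC5 (edgeR adjusted p = 0.0525). NLRC5 also lost its call without shRNA 2 replicate 1 (edgeR adjusted p = 0.132). Of the 153 genes named by rule, 6 lost their call without shRNA 2 replicate 1, 6 without replicate 3, and 0 to 3 under each other alternative; HLA-C lost its call in 10 alternatives and YTHDC1 gained one without shRNA 2 replicate 1. The shallowest library, shRNA 2 replicate 1, sets the limit for low genes.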

Other observations

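Of the other opposite genes, 6 chosen after their values were seen are given here. CCND3, a cyclin of the G1 phase, stood at 119, 112 and 110.2 CPM in controls, 174, 194 and 127 CPM under shRNA 1 and 85.1, 69.5 and 69.7 CPM under shRNA 2 (edgeR adjusted p = 0.000237 between the hairpins). DICER1, whose product cuts precursors of microRNAs, held 113, 123 and 112 CPM in controls, 152, 141 and 171 CPM under shRNA 1 and 75.3, 81.7 and 73.4 CPM under shRNA 2. IGF1R, a growth factor receptor gene, held 34.2, 29.8 and 40.9 CPM in controls, 43.7, 43.3 and 48.3 CPM under shRNA 1 and 27.5, 24.99 and 25.02 CPM under shRNA 2. Moving the other way, IL4I1, a secreted enzyme that breaks down phenylalanine, held 8.48, 8.64 and 9.14 CPM in controls, 5.66, 7.36 and 5.28 CPM under shRNA 1 and 29.97, 22.4 and 22.9 CPM under shRNA 2 (edgeR adjusted p = 8.69e-06). P2RX4, an ATP-gated channel of macrophages, held 31.6, 32.9 and 32.3 CPM in controls, 23.4, 23.3 and 24.6 CPM under shRNA 1 and 77.6, 64.5 and 61.2 CPM under shRNA 2. IL12RB1, a cytokine receptor gene, held 5.27, 5.48 and 6.596 CPM in controls, 2.899, 3.58 and 2.69 CPM under shRNA 1 and 9.64, 9.15 and 9.198 CPM under shRNA 2. These 6 genes were taken from opposite genes already required to have hairpin groups that do not overlap, so their separation is part of the choice.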
